A study of Mus musculus with 10 samples.

Results

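Epithelial junction and keratin genes were followed in single cells through the chemical conversion of mouse embryonic fibroblasts (MEFs) to cells like those of the extraembryonic endoderm (XEN-like cells). The group holds 32 genes of the 23197 in the count table, listed by name as known components or regulators of epithelial cells, with earlier results of these data in view. All 32 had a row in the table.

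Epithelial cells are joined by adherens junctions, desmosomes and tight junctions, and keratin filaments anchored at desmosomes carry tension across the sheet. Fibroblasts hold other cadherins and vimentin filaments and lack most of these components. The extraembryonic endoderm is one of the earliest epithelia of the embryo. Conversion of fibroblasts to an epithelial type involves a mesenchymal-to-epithelial change in genes of this kind. Keratins 8 and 18 pair with each other and are typical of simple, single-layered epithelia.

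The MEFs were of the ICR strain and are a mixed primary culture of what remains of an embryo without its viscera, head and limbs. They were given the cocktail named C6FAE, which holds CHIR99021, a TGF-β receptor inhibitor (the 6 of the name), Forskolin, AM580 and EPZ004777. The labels name C6FAE for the single cells, without the valproic acid that the general recipe of the study also lists. Cells were picked by hand on days 0, 1, 2, 3, 4, 5, 6, 8, 12 and 20, here d0 to d20, and from colonies on day 8 (d8c) and day 12 (d12c), where d6p stands for day 6 and the meaning of p is not stated. The untreated fibroblasts of d0 are the reference, all later groups had received the cocktail, and all groups share the same mouse strain.

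A level is given as CPM, a gene's UMIs (molecular tags that let each RNA molecule be counted once) scaled to a total of 1000000 in the cell. Only cells in which 4000 or more genes were found are used, 670 of 808, with 20 cells at d8c and 36 to 86 cells in each other group. Median depth was lowest at d20, with 195480 UMIs, and highest at d2, with 1055206 UMIs. Cell names do not show from which of the 10 sequenced samples a cell came, so the table is 1 sample, cells are not replicates, and no test was made. Intervals are exact Poisson for UMIs and exact Clopper-Pearson for shares of cells, at 95%, and cover counting error only. For a gene without a UMI in a group, the limit given is instead 3 divided by the number of cells, an approximation. In averages over many cells, fewer expressing cells and less RNA per cell cannot be told apart, and values of single cells are therefore given beside them.

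The labels of d0 and d20 were compared with marker genes. At d0 the median summed level was 2865 CPM for 8 fibroblast markers and 170 CPM for 12 XEN markers, and at d20 it was 241 CPM and 3970 CPM. Among the 8, *Pdgfra* was higher at d20 than at d0, with means of 201 and 28.2 CPM, and the other 7 were lower. The d12c cells fell into unlike sets. Those numbered 49 to 96 had 3686 CPM of XEN markers and 162 CPM of fibroblast markers, whereas those numbered 1 to 24 had 390 and 3764 CPM, with more fibroblast than XEN markers, as in the d12 cells not picked from colonies (129 and 7219 CPM). In those numbered 49 to 96 the mean of *Pdgfra* was 161 CPM. No cell numbered 25 to 48 was kept. The sets are given apart below, and whether the numbers stand for libraries was not tested.

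Promoters of *Epcam*, *Cldn4*, *Krt8* and *Krt18* are shown because these genes differed in when they appeared: *Krt18* was found at d0, *Epcam* and *Cldn4* came at d12, and *Cldn4* was at 0 again at d20. Each line runs 5′ to 3′ on the strand of the gene, from 250 bases before to 50 bases after its start, in RefSeq for GRCm38.p6. Capitals mark CACCTG and its reverse complement CAGGTG, the letters that the repressors of the Snail and Zeb families are known to bind.
Epcam: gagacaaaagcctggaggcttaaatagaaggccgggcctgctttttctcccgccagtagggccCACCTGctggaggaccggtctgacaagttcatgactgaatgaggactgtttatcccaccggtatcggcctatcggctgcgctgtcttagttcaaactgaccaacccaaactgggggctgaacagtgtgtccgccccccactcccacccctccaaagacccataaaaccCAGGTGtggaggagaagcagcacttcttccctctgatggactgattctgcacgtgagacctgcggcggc
Cldn4: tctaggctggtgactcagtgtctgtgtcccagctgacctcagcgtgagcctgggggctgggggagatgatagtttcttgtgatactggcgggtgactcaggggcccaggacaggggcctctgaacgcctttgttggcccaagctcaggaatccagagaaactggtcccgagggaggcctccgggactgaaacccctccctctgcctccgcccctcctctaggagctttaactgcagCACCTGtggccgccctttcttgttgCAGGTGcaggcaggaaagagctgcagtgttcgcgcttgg
Krt8: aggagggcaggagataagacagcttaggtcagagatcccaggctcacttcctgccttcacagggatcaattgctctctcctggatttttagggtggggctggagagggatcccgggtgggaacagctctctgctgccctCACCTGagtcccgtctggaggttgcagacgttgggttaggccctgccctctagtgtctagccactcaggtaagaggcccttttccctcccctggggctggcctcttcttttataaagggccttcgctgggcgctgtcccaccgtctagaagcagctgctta
Krt18: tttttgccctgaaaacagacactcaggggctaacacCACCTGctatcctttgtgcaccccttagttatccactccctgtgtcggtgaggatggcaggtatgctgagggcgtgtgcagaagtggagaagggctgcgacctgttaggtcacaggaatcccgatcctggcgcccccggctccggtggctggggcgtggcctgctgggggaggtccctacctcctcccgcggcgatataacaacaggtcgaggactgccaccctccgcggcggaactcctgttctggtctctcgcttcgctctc

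The *Epcam* promoter lies at chr17:87635729-87636028 on the plus strand and the *Cldn4* promoter at chr5:134946885-134947184 on the minus strand. Those of *Krt8* at chr15:102004293-102004592 on the minus strand and of *Krt18* at chr15:102027966-102028265 on the plus strand are neighbours. *Epcam* and *Cldn4* hold 2 matches each, and *Krt8* and *Krt18* 1 match each. The RefSeq table held 25 promoters for 21 of the 32 genes, and 17 of these genes had a match on either strand in any promoter. By promoter, 20 of the 25 had a match, compared with 20.2% of all 32851 promoters of the same length. The letters AACCGG or CCGGTT, within the site of the Grainyhead factors, were found in 5 of the 25 promoters and in 6.83% of all. CCCGCC or GGCGGG, within the site of Sp1-type factors, was found in 17 of the 25 and in 35.3% of all. By gene these were 5 and 15 of the 21. These matches describe letters in a window, and binding was not measured.

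The list as a whole stayed low up to d8c and was high from d12c to d20. The summed level of the 32 genes per cell had a median of 103 CPM in untreated cells and 134.7 CPM by d4. The medians of d8, d8c and d12 were 34.8, 27.7 and 180 CPM. It was 394 CPM in the d12c cells numbered 1 to 24, 3985 in those numbered 49 to 96 and 3158 at d20. Single cells spread widely around these medians, from 1.02 to 2002 CPM at d0 and from 135 to 7559 CPM at d20, so the ranges of d0 and d20 overlap. Keratins made up 56.6% of the mean sum at d0 and 66.8% at d20, and without the keratins the medians were 48.97 and 946 CPM.

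**Figure D1:**
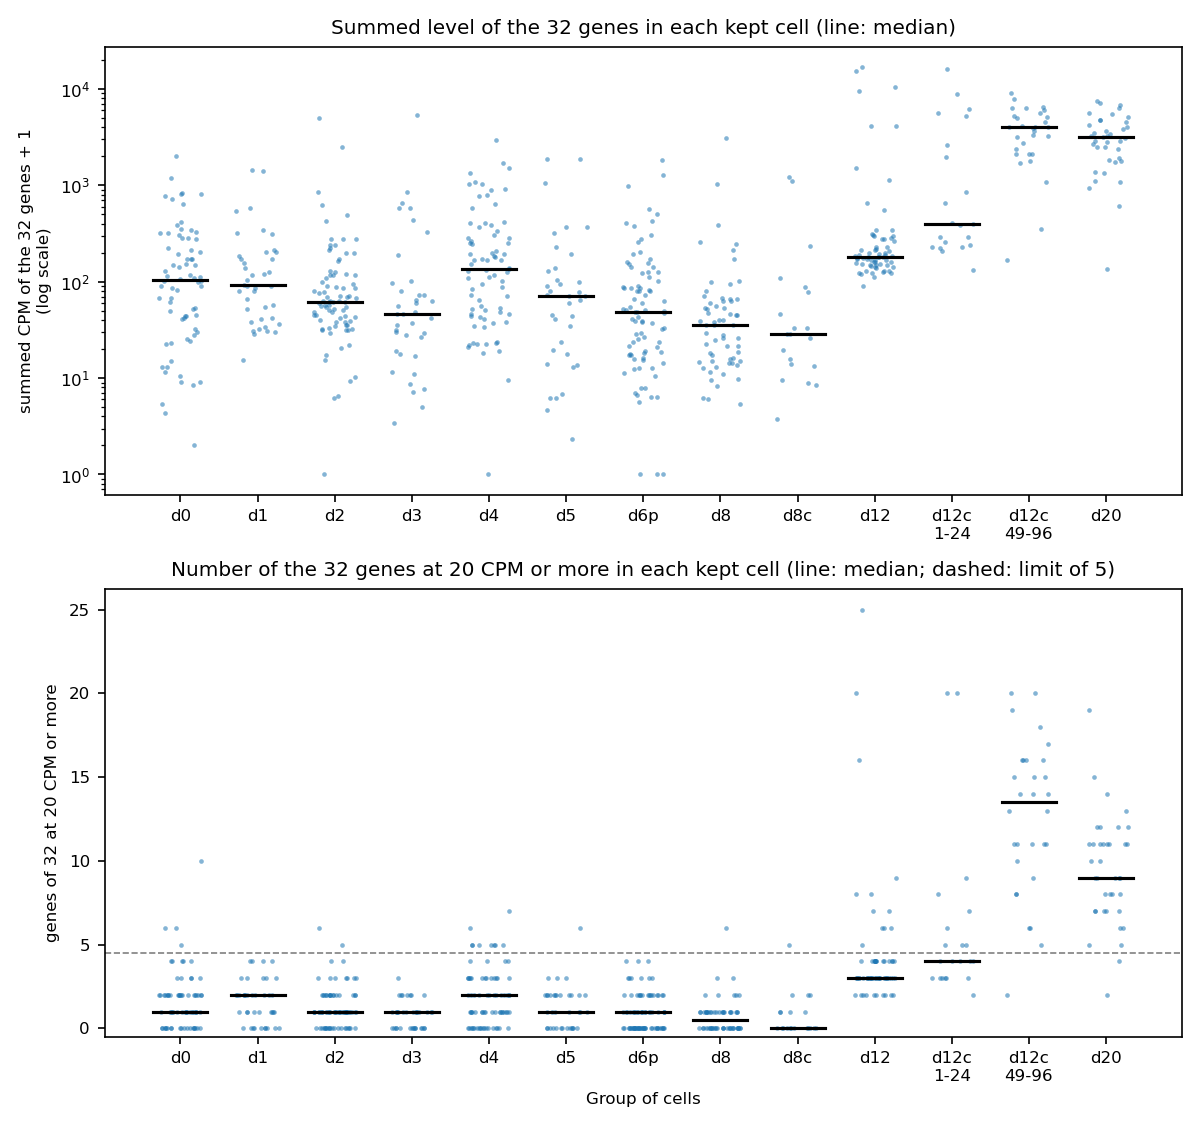
Summed CPM of the 32 genes plus 1 (upper panel, log scale) and number of the 32 genes at 20 CPM or more (lower panel) in each of the 670 kept cells, by group; each point is a cell, the black line is the median and the dashed line marks the limit of 5 genes. Cells of d12c numbered 49 to 96 and of d20 lie mostly above this limit, with medians of 13.5 and 9 genes, whereas the medians from d0 to d8c are 2 or lower.

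A cell was taken to hold the genes together where at least 5 of the 32 were at 20 CPM or more. This was seen in 4 of 72 cells at d0, 0 of 40 at d1, 2 of 83 at d2, 0 of 38 at d3, 9 of 77 at d4, 1 of 36 at d5, 0 of 86 at d6p and 1 of 62 at d8. Afterwards it was seen in 12 of 67 cells at d12 (17.9%, 9.61% to 29.2%), in 9 of 21 d12c cells numbered 1 to 24, in 29 of 30 numbered 49 to 96 (96.7%, 82.8% to 99.9%) and in 36 of 38 at d20 (94.7%, 82.3% to 99.4%). The shares at d12 and in the d12c cells numbered 1 to 24 depended on depth. In cells thinned to 50000 UMIs, where 1 UMI is worth 20 CPM, the count was 34 of 66 at d12, 19 of 21 in the d12c cells numbered 1 to 24, 25 of 26 in those numbered 49 to 96 and 35 of 36 at d20. Among earlier thinned cells it was 7 of 71 in untreated MEFs, 5 of 40 at d1, 13 of 73 at d4, 1 of 59 at d8 and 1 of 20 at d8c. At least 10 genes at this level were found in 23 of 30 d12c cells numbered 49 to 96 and in 18 of 38 d20 cells. They were also found in 2 of 21 d12c cells numbered 1 to 24 and in 3 of 67 d12 cells. The 1 cell before d12 with as many was a d0 cell with *Krt8*, *Krt18*, *F11r*, *Lsr* and *Perp* among its 10 genes. It also held 4670 CPM of 5 mesothelium markers, against a median of 1.41 CPM over d0 cells. Mesothelium is itself a keratin-bearing epithelium, and the part of such cells in the d0 values was not tested.

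Gains were ordered by the first group in which the mean of a gene passed 5 CPM. Already at d0, 8 genes did so: the keratins *Krt7*, *Krt8*, *Krt18* and *Krt19*, the junction plaque genes *Tjp1* and *Jup*, the junctional adhesion gene *F11r* and the desmosome-associated *Perp*. *Spint2* followed at d1, *Dsp* at d2, and *Pkp2* and *Spint1* at d4, and no gene was added from d5 to d8c. A first passing is not a lasting gain. At d8 the means of *Spint2*, *Dsp*, *Pkp2* and *Spint1* were 0.987, 4.90, 0.00899 and 0.0238 CPM, under the limit. *Pkp2* already had 4.66 CPM at d0. At d12 came 7 genes, namely *Cdh1*, *Epcam*, *Cldn3*, *Cldn4*, *Cldn6*, *Cldn7* and *Lsr*. At d12c came 8 more, namely *Ocln*, *Esrp1*, *Ovol1*, *Marveld3*, *Crb3*, *Cgn*, *St14* and *Ap1m2*. Both groups are of day 12, so the step from d12 to d12c is not an order in time. In 3 d12 cells with more XEN than fibroblast markers, described below, the means of these 8 genes ranged from 16.6 CPM for *Marveld3* to 77.0 for *Ap1m2*. The mean of *Tjp3*, *Esrp2*, *Grhl2*, *Rab25* and *Prss8* stayed at 5 CPM or below in all 12 groups, although that of *Prss8* was 6.38 CPM in the d12c cells numbered 49 to 96 taken alone.

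Single cells decided part of this order. Without the highest cell of each group, *Krt8* and *F11r* first passed at d12 instead of d0, *Pkp2* and *Cldn3* at d12c, *Dsp* at d3 and *Cgn* at d20, and *Esrp1* and *Ovol1* passed nowhere. A further criterion used cells thinned to 50000 UMIs. It asked when the lower limit of the share of cells with a UMI exceeded the upper limit at d0. It was met by *Dsp* at d3 and *Spint1* at d5, by 8 genes at d12 (*Cdh1*, *Epcam*, *Krt8*, *Krt18*, *Krt19*, *Cldn4*, *Cldn7* and *Spint2*) and by 8 at d12c (*Cldn3*, *Cldn6*, *Ocln*, *Lsr*, *Marveld3*, *Crb3*, *St14* and *F11r*). The other 14 genes did not meet it in any group.

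**Figure D2:**
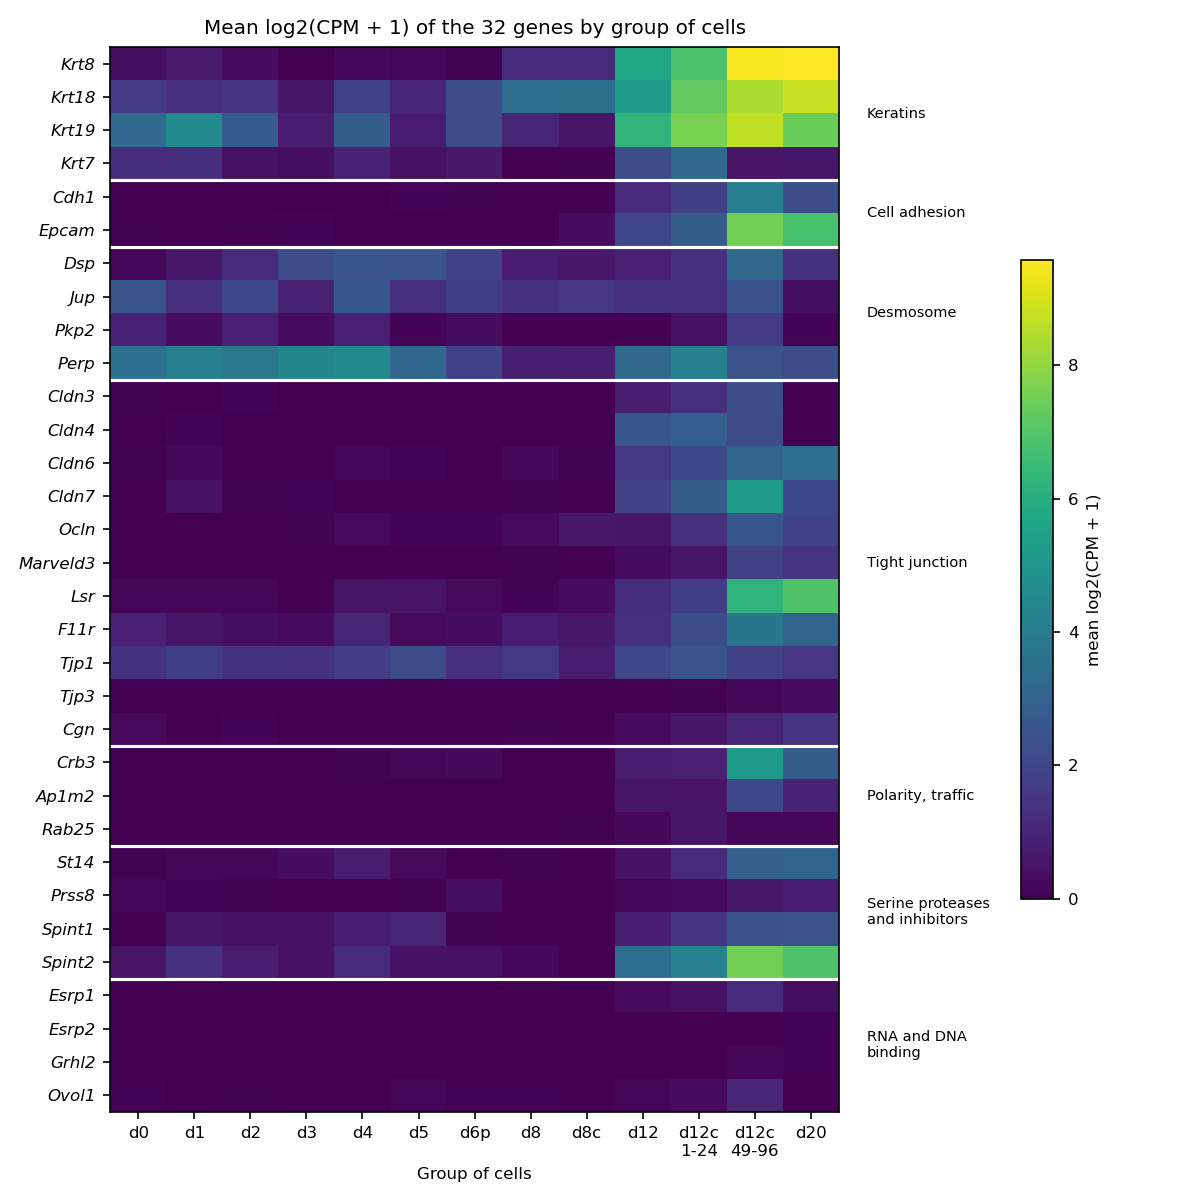
Mean log2(CPM + 1) of the 32 genes (rows, sorted by role) in 13 groups of cells (columns), with d12c split by running number. *Krt8*, *Epcam*, *Lsr* and *Spint2* have their highest values in the columns of the d12c cells numbered 49 to 96 and d20, whereas *Dsp* has higher values from d3 to d6p, and again in these d12c cells, than at d8 or d8c.

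The first gains included a desmosome gene. Desmoplakin, encoded by *Dsp*, ties keratin filaments to the desmosome. It had 8 UMIs in the 72 d0 cells, with no cell above 7.29 CPM, and its mean was 5.27 CPM at d2, 10.4 at d3, 18.2 at d4 and 18.2 at d5. Thinned cells held a *Dsp* UMI in 4.23% of cases at d0 (0.880% to 11.9%), in 37.0% at d4 (26.0% to 49.1%) and in 8.47% at d8 (2.81% to 18.7%). The mean was then 4.90 CPM at d8 and 1.80 at d8c, 33.7 in the d12c cells numbered 49 to 96 and 12.3 at d20. These means depended on which cells were counted. By running number the mean of *Dsp* was 9.48, 8.81, 21.9 and 36.8 CPM in the 4 ranges of 24 numbers at d4, and 1.10, 1.63 and 12.3 CPM in the 3 ranges at d8. At d20 it was 28.4 CPM in cells numbered 1 to 24 but 0.417 and 0.788 CPM in the later ranges.

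*Perp*, which encodes a desmosomal membrane protein and is a target of p53, was at 20 CPM or more in 25 of 72 cells at d0 and in 40 of 77 at d4. Its mean was 42.3 CPM at d0, 237 at d3 and 121 at d4, and 7.46 at d8. At d3 1 cell of 5381 CPM decided the mean, which was 97.6 CPM without it. At d4 the mean of *Perp* was 21.2 and 26.5 CPM in the cells numbered 1 to 24 and 25 to 48, but 169 and 310.2 CPM in those numbered 49 to 72 and 73 to 96, so the d4 value depends on which cells are counted. *Jup*, encoding plakoglobin, which is shared by desmosomes and adherens junctions, had means of 26.8 CPM at d0, 8.74 at d8, 26.4 in the d12c cells numbered 49 to 96 and 1.66 at d20. *Pkp2*, which encodes plakophilin 2, had 4.66 CPM at d0, 13.1 in the same d12c cells and 0.465 at d20.

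By d8 several of the genes found at d0 were lower. Differences are given in mean log2(CPM + 1), where 1 is the limit for calling a gene higher or lower, and a gene is compared if that mean reaches 1 on one side. Of the 32 genes, 7 reached this level at d8 or d0. *Krt18* was higher at d8 by 1.72, and 4 genes were lower: *Perp* by -2.65, *Krt19* by -2.29, *Krt7* by -1.23 and *Jup* by -1.10. Of the 9557 genes compared, 17.1% were higher and 13.7% lower. *Krt18* had a UMI in 42.4% of thinned cells at d8 (29.6% to 55.9%) against 19.7% at d0 (11.2% to 30.9%), intervals that overlap slightly. Its median was 9.69 CPM at d8 and 0 at d0, but its highest d0 cell, with 844 CPM, was above all but the highest d8 cell, with 2343 CPM. *Krt8* had medians of 0.870 and 0 CPM and was at 20 CPM or more in 2 of 62 and 2 of 72 cells, with a difference of 0.82.

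Cells picked from day 8 colonies showed no gain past the limit over other d8 cells in these genes. Only 4 of the 32 reached a mean log2 level of 1 in either group, and none of them differed by over 1 in either direction: *Krt18* by 0.14, *Jup* by 0.14, *Krt8* by -0.02 and *Tjp1* by -0.77. Of the 9278 genes compared, 4.59% were higher and 16% lower in d8c. When the mean CPM was taken before the logarithm, which gives single cells more weight, 2 of the 32 were higher and 4 lower, where 14.7% and 21% of the 12436 genes then compared were. Mesenchymal genes did differ between the same cells, with 13 of 20 lower in d8c, among them *Snai1* by -2.17 and *Col1a1* by -1.46, and no such gene higher.

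In the 20 d8c cells, 14 of the 32 genes had a UMI in any cell and 8 reached 20 CPM in any cell. The other 18 genes, with *Cdh1*, *Cldn3*, *Cldn4*, *Cldn7* and *Spint2* among them, had none, which allows a share of up to 15% of such cells with a UMI. In 12 of the 20 cells no member was at 20 CPM, as in 31 of the 62 d8 cells. *Epcam* was found in 1 d8c cell, at 70.3 CPM, a cell that also held 10828 CPM of fibroblast markers, 9.59 CPM of *Krt18* and no *Krt8*. The largest sums were 1221 and 1098 CPM in 2 cells, in which *Krt18* was at 759 and 1025 CPM and *Krt8* at 183 and 63.0 CPM. The first of them was the 1 d8c cell with 5 genes at 20 CPM or more (5%, 0.127% to 24.9%), which added *Perp* at 142 CPM, *F11r* at 113 and *Ocln* at 24.1. It held 1672 CPM of fibroblast markers and 361 CPM of XEN markers. A d8 cell outside colonies had 6 genes at this level, with *Krt18* at 2343 CPM, *Krt8* at 495 and *Cldn6* at 87.0, and had no *Epcam* or *Cdh1* UMI.

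Keratins 8 and 18 were thus high in 2 d8c cells, in which *Cdh1*, *Cldn3*, *Cldn4* and *Cldn7* were at 0. The 1 d8c cell whose XEN markers exceeded its fibroblast markers, at 1214 against 625 CPM, had a sum of 7.99 CPM over the 32 genes, made up of *Tjp1* and *Lsr*. It had no UMI of *Sox17*, which is one of the XEN markers. The d8c cells with the most *Sox17*, at 306 and 130 CPM, had sums of 27.6 and 236 CPM. The latter held *Krt18* at 157 CPM and *Ocln* at 64.1 CPM.

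At d12 several of the genes were found in most cells, but at high level in few. *Krt8*, of which the lowest d12 cell held 21.3 CPM, had a median of 38.6 CPM and a highest cell of 4271 CPM. Of the 32 genes, 15 had the level to be compared between d12 and d8. Of these 12 were higher at d12 and 0 were lower, where 14.2% and 14.6% of the 9708 genes compared were. The largest differences were 5.29 for *Krt19*, 4.47 for *Krt8* and 3.22 for *Spint2*, which encodes an inhibitor of membrane serine proteases, and those of *Cdh1*, *Lsr* and *Cldn6* were 1.18, 1.17 and 1.34.

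The d12 cells were split by marker genes that are not among the 32. In 3 of the 67 cells the XEN markers exceeded the fibroblast markers, and these held a sum of 9464, 15368 and 16748 CPM of the 32 genes. Their mean was 3157 CPM for *Krt8*, 834 for *Epcam*, 841 for *Cldn4* and 367 for *Cdh1*. In the other 64 cells the median sum was 180 CPM, and the medians of these genes were 36.3, 2.46, 4.48 and 1.07 CPM. At such levels UMIs of *Krt8* were found in all 64, of *Cldn4* in 56, of *Epcam* in 52 and of *Cdh1* in 39 cells, against 35, 0, 1 and 1 of the 62 d8 cells, at median depths of 768565 UMIs in all d12 cells and 676178 at d8. A share of cells with a UMI therefore does not separate these cells from those at high level.

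Over the 14 genes with a mean of at least 100 CPM in the 3 cells, the median of the 64 cells was 0.559% of that mean, with a range from 0 for *Cldn3* to 1.90% for *Krt19*. The part of RNA shared between cells in these low levels was not tested. Without the 3 cells, 10 of the 32 genes were still higher at d12 than at d8, and the means of *Cdh1*, *Epcam*, *Cldn3* and *Cldn7* were 1.15, 3.28, 1.95 and 3.01 CPM, under the limit of 5 CPM, while *Cldn4*, *Cldn6* and *Lsr* had 6.70, 7.43 and 6.10 CPM. Their medians were under that limit, at 4.48, 1.42 and 0.723 CPM, and their highest cells had 118, 338 and 275 CPM. The highest values of *Cldn6* and *Lsr* were from 1 cell, with 592 CPM of XEN and 600 CPM of fibroblast markers.

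Some d12 cells with more fibroblast than XEN markers held single members at high level. One had 10228 CPM of *Krt19*, one 3550 CPM of *Perp*, and one 413 CPM of *Spint1*, which encodes a further protease inhibitor. In the d12c cells numbered 1 to 24 the split gave 4 cells with sums of 5276 to 16146 CPM and 17 cells with a median of 291 CPM. Markers were mixed in the cell with 16146 CPM, at 896 CPM for XEN, 628 for fibroblast, 846 for stratified-epithelium and 394 for mesothelium markers. Another of the 4 had *Krt19* at 2981 CPM, *Krt18* at 931 and *Krt7* at 192 CPM but *Epcam* and *Cdh1* at 1.15 CPM each, and it held 532 CPM of mesothelium markers.

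**Figure D3:**
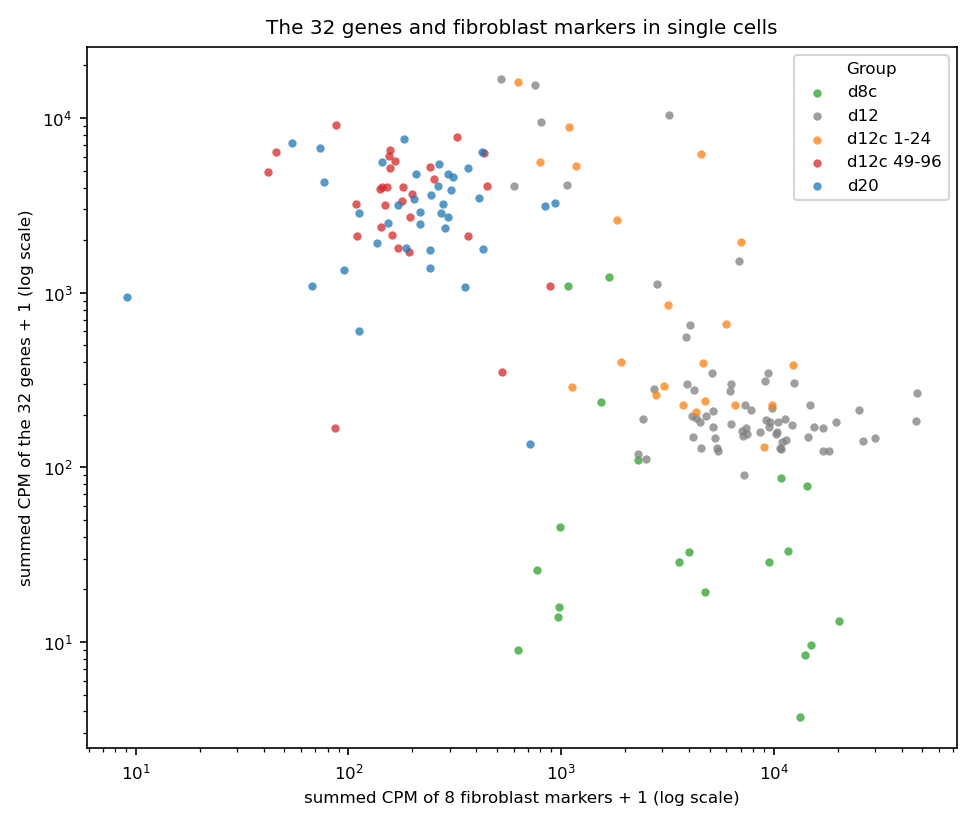
Summed CPM of the 32 genes against summed CPM of 8 fibroblast markers, each plus 1 and on a log scale, in the cells of d8c, d12, d12c (numbered 1 to 24 and 49 to 96) and d20; each point is a cell. Cells of d20 and of d12c numbered 49 to 96 lie at the upper left, most d12 cells form a group at the lower right near a sum of 180 CPM, and d8c cells lie below it with a median of 27.7 CPM.

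The d12c cells numbered 49 to 96 held the widest set of these genes. Of the 32, 26 had the level to be compared, 20 were higher than at d12 and 1, *Krt7*, was lower, against 17.3% and 32.2% of the 9648 genes compared. The median difference was 1.55 over all 32 genes and 0 over all 23197 genes, most of them too low to be compared. *Epcam*, which encodes an epithelial adhesion molecule, differed by 5.53, *Lsr*, a component of tricellular junctions, by 4.99, *Crb3*, a polarity gene of the apical membrane, by 4.42, and *Spint2* by 4.11. Without the highest cell of each group, 19 were higher.

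Keratins led in level at d12c and d20. *Krt8* had a mean of 1039 CPM in the d12c cells numbered 49 to 96 (7988 UMIs, 7814 to 8165) and of 1155 CPM at d20 (8576 UMIs, 8395 to 8759), against 5.21 CPM at d0 (181 UMIs, 156 to 209). All 30 and all 38 cells were at 20 CPM or more, with medians of 959 and 880 CPM and a d20 range from 31.96 to 3701 CPM. *Krt18* had medians of 436 and 738 CPM in these groups, with d20 cells between 9.83 and 2419 CPM. *Krt19*, a keratin of simple epithelia without a fixed partner, had medians of 641 and 242 CPM, against 8.55 at d0. *Krt7* was different: its mean was 32.7 CPM at d0, where 1 cell held 1162 CPM, and 4.63 CPM at d20, where it was found in 5 of 38 cells. Copies of *Krt8* and *Krt18* without introns exist in the genome, and how reads shared with them were assigned is not given in the sources used here.

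Among the adhesion genes *Cdh1*, which encodes E-cadherin of the adherens junction, had no UMI in the 72 d0 cells, which allows a share of up to 4.17% of cells with a UMI at this depth and does not limit expression below it. It had a mean of 54.1 CPM (389 UMIs, 351 to 430) in the d12c cells numbered 49 to 96, where 16 of 30 cells were at 20 CPM or more, and of 26.0 CPM at d20, where 11 of 38 were. *Epcam* had medians of 364 and 191 CPM in these groups and was at 20 CPM or more in 26 of 30 and in 30 of 38 cells, with the highest cells at 1764 and 833 CPM. *Cdh1* was at this level in no cell of d12, d12c or d20 without *Epcam*, whereas 10 cells of the d12c set and 19 of d20 had *Epcam* without *Cdh1*. No cell of the groups compared had both *Cdh1* and *Cdh2*, encoding N-cadherin of mesenchymal cells, at 20 CPM or more. At d20, 11 cells had the former, 6 the latter and 21 neither.

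**Figure D4:**
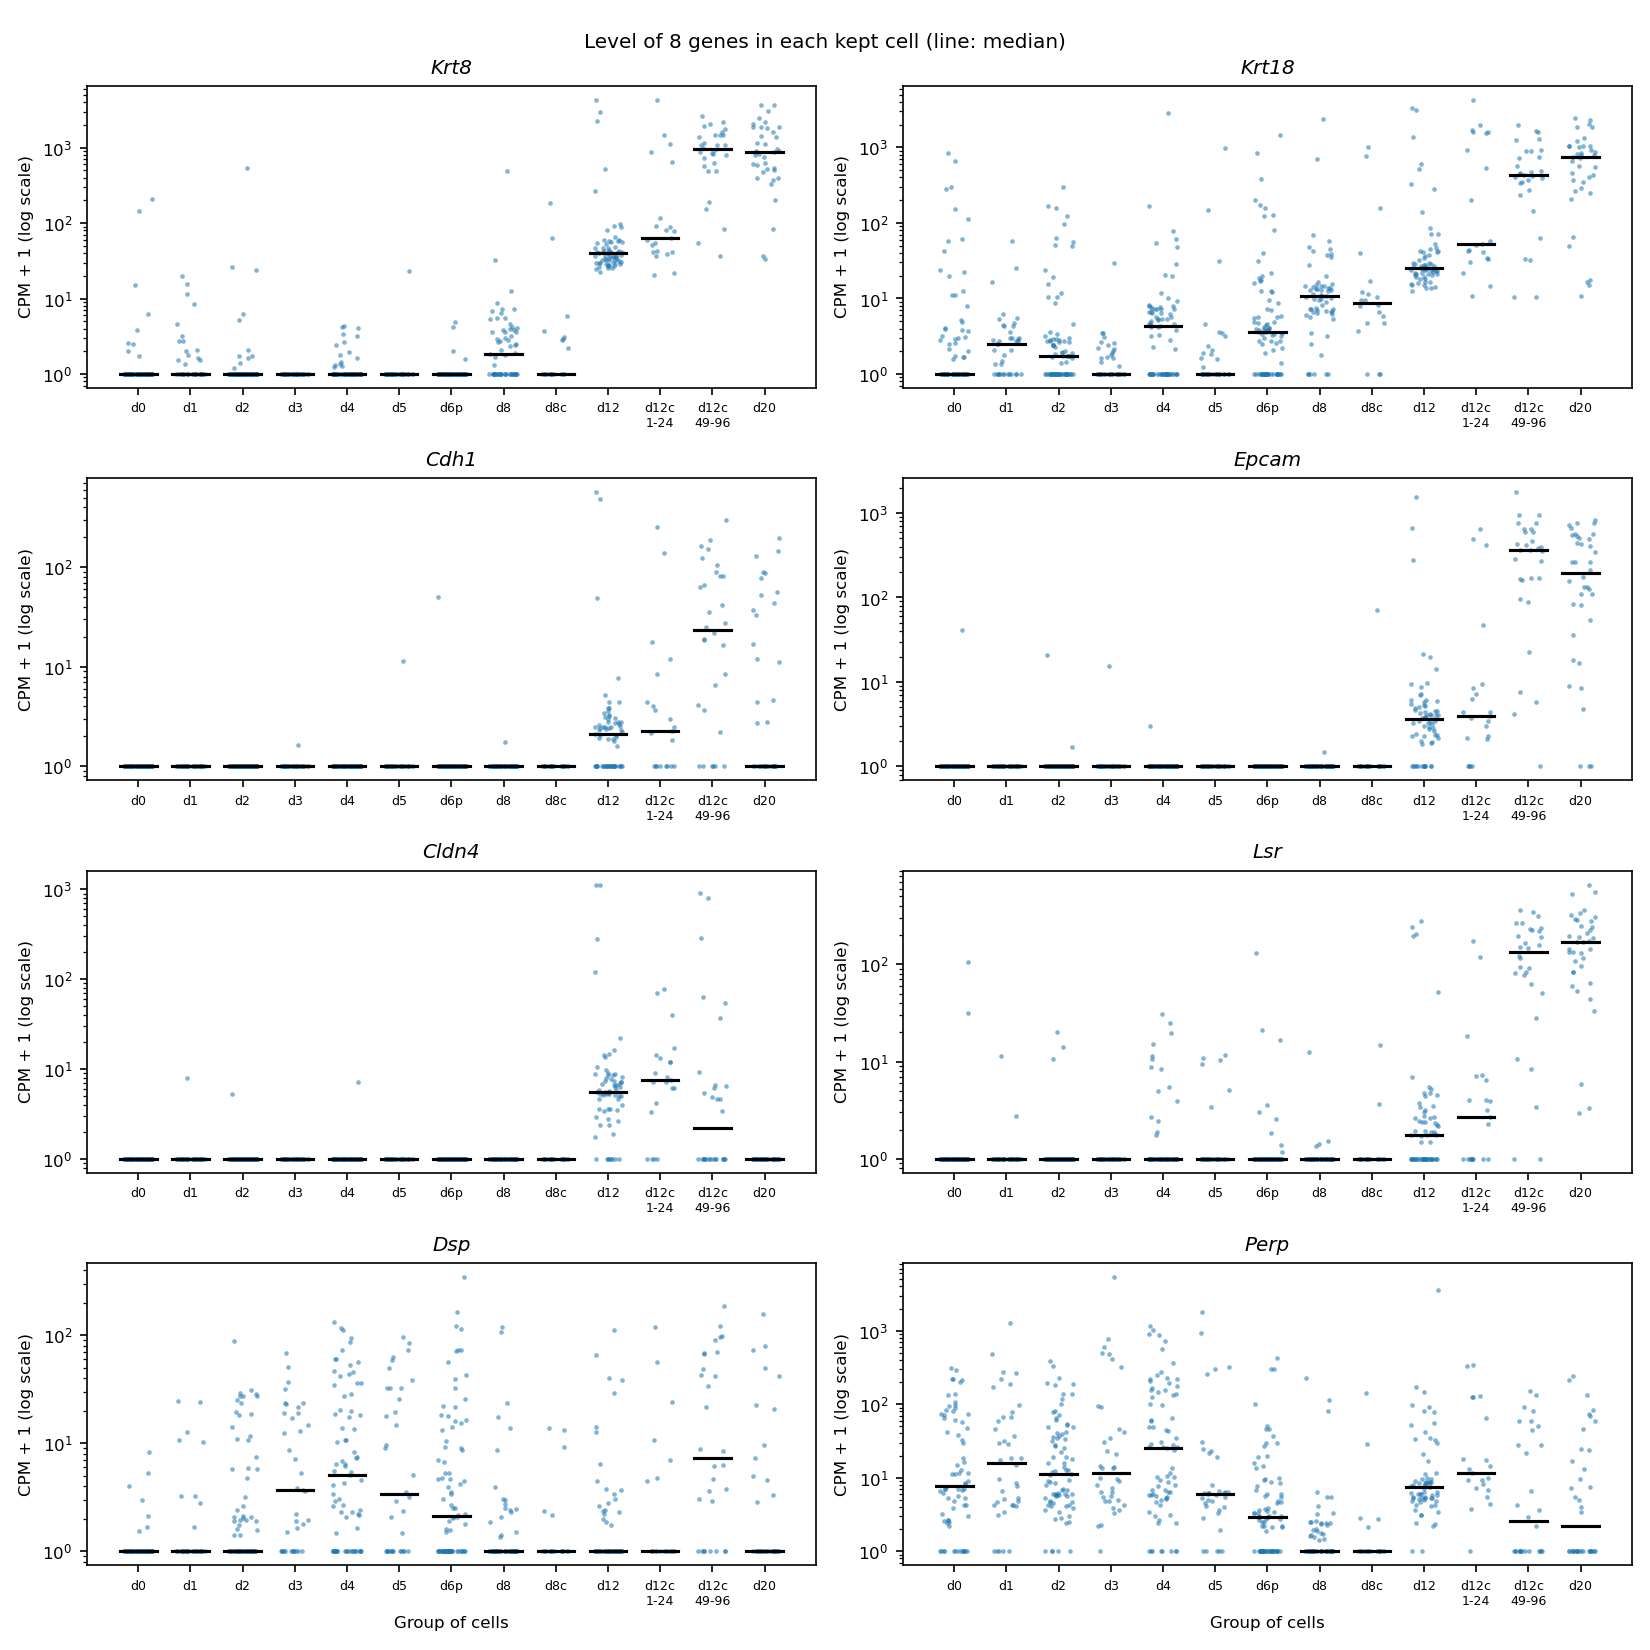
CPM plus 1 (log scale) of 8 of the 32 genes in each kept cell, by group; each point is a cell and the line is the median. *Krt8*, *Epcam* and *Lsr* have medians above 100 CPM in the d12c cells numbered 49 to 96 and at d20, *Cldn4* is at 0 in all 38 d20 cells, and *Dsp* and *Perp* spread over many cells before d8.

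Claudins form the strands of tight junctions and differ in the ions they let pass. *Cldn6* and *Cldn7* had means of 84.9 and 190 CPM in the d12c cells numbered 49 to 96 and of 99.8 and 42.4 CPM at d20. *Cldn3* and *Cldn4* had 36.8 and 73.1 CPM in the former, at 20 CPM or more in 11 and 6 of 30 cells, but no UMI in any of the 38 d20 cells, which allows up to 7.89% of cells with a UMI at this depth. The mean of *Cldn4* was carried by few cells, with a median of 1.19 CPM and a highest of 909 CPM, and it was 123 CPM in the cells numbered 49 to 72 against 22.8 CPM in those numbered 73 to 96. Both groups were shallow, with median depths of 276240 and 195480 UMIs.

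Of the other tight junction genes, *Lsr* had means of 142 and 193 CPM in these groups. *Ocln*, which encodes occludin, had 17.3 and 9.65 CPM, *Marveld3*, of the same protein family, 16.03 and 11.5 CPM, and *F11r* 28.4 and 19.3 CPM. The plaque genes *Tjp1*, *Tjp3* and *Cgn* encode scaffolds on the inner side of the junction. *Tjp1* had 6.62 CPM at d0 and 13.7 at d20, with a difference of 0.11 in mean log2, *Cgn* had 9.08 CPM at d20, and *Tjp3* 1.55 CPM.

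*Crb3* and *Ap1m2* first passed 5 CPM at d12c, and *Rab25* in no group. *Crb3* had a mean of 87.5 CPM and a median of 61.7 CPM in the d12c cells numbered 49 to 96, and a mean of 45.8 CPM at d20. *Ap1m2*, which encodes an adaptor subunit for sorting to the basolateral membrane, had 21.0 and 10.6 CPM, and *Rab25*, a GTPase of apical recycling, 1.31 and 2.72 CPM. Of the serine protease *St14* and its inhibitors, *St14* had 19.97 and 24.4 CPM, *Spint1* 25.8 and 28.7 CPM and *Spint2* 279 and 234 CPM. *Spint2* was at 20 CPM or more without *St14* in 17 of the 30 and 16 of the 38 cells. The protease *Prss8* had 6.38 and 4.73 CPM.

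The list also holds 4 regulators of the epithelial state. *Esrp1* and *Esrp2* encode splicing factors of epithelial cells, *Grhl2* a Grainyhead transcription factor and *Ovol1* a zinc-finger repressor. *Esrp1* had 7.99 CPM in the d12c cells numbered 49 to 96 and 0.916 at d20, and *Ovol1* had 25.8 CPM, with 596 CPM in 1 cell, and 0. *Grhl2* was found in 1 cell of that set and 1 of d20, and *Esrp2* in 1 cell of d20 and in none of the other groups.

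The set was narrower at d20 than in the d12c cells numbered 49 to 96. Those d12c cells came from colonies, while d20 cells are not named as such and were shallower (medians of 276240 and 195480 UMIs). Time, picking and depth cannot be told apart here. Compared with the d12c cells numbered 49 to 96, none of the 32 genes was higher at d20 and 11 were lower, with 26 compared, where 14.9% and 10.3% of the 8522 genes compared were. *Cldn7* was lower by -3.09, *Crb3* by -2.37, *Cldn3* by -2.32, *Cldn4* by -2.23, *Jup* by -2.06, *Dsp* by -1.89 and *Cdh1* by -1.82, and *Pkp2*, *Krt19*, *Ap1m2* and *Ovol1* by -1.55 to -1.03. *Krt8*, *Krt18*, *Lsr* and *Cldn6* differed by 0.08, 0.36, 0.70 and 0.37. With all deposited cells 7 genes were lower, and with a pseudocount of 10, or a limit of 2 in place of 1, 5 were. XEN markers had medians of 3686 and 3970 CPM in these groups.

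From d0 to d20, 17 of the 32 genes were higher and 2 were lower, with 21 compared, against 15% and 25.1% of the 9352 genes compared. The largest differences were 9.20 for *Krt8*, 7.07 for *Krt18*, 6.79 for *Lsr*, 6.72 for *Epcam* and 6.42 for *Spint2*. *Jup* and *Perp* were lower by -2.13 and -1.19, a pair of desmosome genes, and *Krt7* differed by -0.71. The median difference was 1.24 over all 32 genes and 0 over all 23197 genes.

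Other epithelial genes were counted on a list of 36. At d20, 9 of them were higher than at d0 and 0 were lower, with 11 compared, beside the 15% and 25.1% of the genes compared, among them *Elf3*, an epithelial transcription factor, by 5.25, the membrane protease *Tmprss2* by 5.07 and the desmosomal cadherin *Dsg2* by 1.45. In the d12c cells numbered 49 to 96, 8 were higher and 4 lower than at d12, with 18 compared, beside the 17.3% and 32.2% of the genes compared. *Cd24a* was higher by 6.02 and *Ovol2*, of the same family as *Ovol1*, by 2.36, whereas the keratins *Krt23* and *Krt14* were lower by -5.67 and -1.53. *Krt23* had a mean of 311 CPM at d12 and of 6.76 CPM at d8. Summed stratified-epithelium markers had a median of 7.29 CPM at d20, with 5 of 6 genes at 0, and trophoblast and endothelium markers had a median of 0.

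Mesenchymal genes moved the other way. Of 20, 19 were lower in the d12c cells numbered 49 to 96 than at d12 and 18 lower at d20 than at d0, the exceptions being *Fn1* in the former, and *Pdgfra*, higher by 3.32, and *Snai1* in the latter. The summed median was 10650 CPM at d0, 10097 at d12, 477 in the d12c set and 523 at d20. *Zeb1*, which encodes a repressor of epithelial genes, had no UMI in the 30 d12c cells. Its mean was 24.4 CPM at d0, 69.6 at d8, 21.9 at d12 and 10.4 at d20, where 4 of 38 cells were at 20 CPM or more. No cell of this d12c set or of d20 held both *Epcam* and *Col1a1* at 20 CPM or more, but only 2 of 30 and 1 of 38 cells there had *Col1a1* at this level. All d12 cells and all d12c cells numbered 1 to 24 had *Col1a1* at this level, and so did the 4 in each with *Epcam*. These overlaps follow from how common *Col1a1* was in each group and do not show whether the 2 genes exclude each other. *Vim*, encoding vimentin, was still at 20 CPM or more beside *Krt8* in 23 of 30 and 29 of 38 cells, with medians of 99.4 and 120 CPM.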

How the data were processed

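Per the labels, the authors mapped reads to mouse transcripts of build mm9, and each UMI of a gene in a barcoded cell was counted once. The aligner is not given in the sources used here. The deposited values are unscaled counts, whole numbers of UMIs for each gene in each cell. The table held 808 cells, 23197 genes and 92 ERCC spike-in RNAs, which were left out of library sizes, as were 4 entries of duplicated names. Kept cells had between 17633 and 6004864 UMIs, with a median of 510306, and 23 of them were too shallow for thinning to 50000 UMIs.

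The 32 genes and the marker lists were chosen with earlier results of these data known. Genes described in full had a mean over 100 CPM in any group or a difference past 1 between d8c and d8, non-members came from fixed lists, and every gene was placed in the order of gain. The split of d12 cells by markers, the motif search and the use of number ranges of d4 were chosen after seeing the data. Scaling factors of summed counts came from edgeR 4.0.16 and DESeq2 1.42.0 in R 4.3.3. All else was done with scipy 1.17.1, pandas 2.3.3 and numpy 2.4.6 under Python 3.11.15, figures were drawn with matplotlib 3.10.9, and the comparison was tested on simulated data. Alternatives covered the filter on cells, depth, scaling, pseudocount, averaging, thresholds, the filter on low values and the highest cell.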

Additional observations from a re-analysis of the deposited data

Results flagged for a closer look

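Cells with fewer than 4000 detected genes were outside all comparisons, yet some held the epithelial genes together. At least 5 of the 32 genes at 20 CPM or more were found in 22 of the 34 d20 cells left out and in 11 of the 45 d12c cells left out, against 0 of the 12 d0 cells left out. The median depth of the cells left out was 60536 UMIs at d20, 1028 at d12c and 23286 at d0. At 1028 UMIs a single UMI is worth more than 20 CPM, so the d12c count rests on few UMIs per gene. With all deposited cells, 15 genes were higher at d20 than at d0.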

How the results depend on the processing

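No test was made, and no paired analysis was possible because cells could not be assigned to samples. Of the alternatives for the 11 counts and levels, those not named here moved them by less than 1.5 times, and no gene called higher or lower at d20 against d0, or in d12c cells numbered 49 to 96 against d12, changed direction under any alternative run. A minimum of 6000 genes left 12 d20 cells and moved the median sum at d20 to 1598 CPM, and the genes lower at d20 than at d0 to 1. Thinning moved the latter to 1 and the genes higher at d12 than at d8 to 7. A pseudocount of 10 left 0 genes lower at d20 than at d0, 13 higher in the d12c cells than at d12, 4 higher at d12 than at d8, 5 lower at d20 than in d12c and 2 lower at d8 than at d0. A limit of 2 in place of 1 gave 1, 12, 7, 5 and 2 genes in the same order. Averaging CPM before the logarithm gave 2 genes higher and 4 lower in d8c than in d8, and 20 higher at d12 than at d8. With all deposited cells 7 genes were lower at d20 than in d12c. With 50 CPM or more, or at least 10 genes together, 0 d8c cells remained, and with any UMI there were 6. A comparison of d8c cells numbered above 48 was not run, since d8c numbers end at 24, and limiting the d8c count of cells to numbers 1 to 48 leaves it as it is. Scaling moved the median difference of the genes compared between d20 and d0 from -0.20 to -0.34 with edgeR and -0.29 with DESeq2, and the counts of 17 and 2 genes stayed the same. A gene without a UMI in the 20 d8c cells may still give a UMI in up to 15% of such cells, and expression below this depth is not limited.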
